A study of Mus musculus with 16 samples.

Results

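The circadian clock genes described here are Arntl, Npas2, Per1, Per2, Per3, Cry1, Nr1d1, Nr1d2, Dbp and Tef, 10 genes of the 33269 gene names on the array. They were taken by symbol, as known clock genes, with earlier results of these data known. The array carries 16 probes whose accession maps to these symbols, and the probe with the highest mean level stood for its gene. RNA came from hepatic inflammatory cells of mice treated with adipose tissue-derived stem cells (ADSC), from inflammatory cells of mice treated with phosphate-buffered saline (PBS), from whole liver after ADSC and from whole liver after PBS, with 4 one-colour Agilent arrays in each of these 4 groups. All mice, PBS mice included, were C57Bl/6 females whose livers had become cirrhotic on an atherogenic, fat-rich diet fed for 40 weeks. GFP-transgenic donors supplied the ADSC from their inguinal fat pads. Each of 2 injections under the splenic capsule held 100000 cells, and the organs were collected 2 weeks after the second. How PBS was given is not stated in the labels. ADSC arrays carry the numbers 7 to 10 and PBS arrays 11 to 14 in both sample types, but nothing in the labels ties a number to an animal. P-values therefore measure the spread between these samples, which may be technical. The labels give no time of day for tissue collection.

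The mammalian clock is a loop of transcription that runs in nearly every cell and is strong in hepatocytes, where it times metabolism. ARNTL (BMAL1), paired with CLOCK or NPAS2, switches on genes through E-box sequences. Among those genes are the period and cryptochrome repressors, which shut ARNTL down, the nuclear receptors NR1D1 and NR1D2 (REV-ERB alpha and beta), which repress the Arntl gene, and the PAR bZIP factors DBP and TEF, which act through D-box sequences. In mouse liver the messages of Arntl and Npas2 peak roughly when those of Dbp, Tef and Nr1d1 are low, so their balance reads out the phase of the clock.

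The 75th percentile of the processed signal, to which each array was scaled, lay between 124 and 552, and 51.6% to 66.3% of spots were well above background. Markers of the labelled material were present: 7 of 7 hepatocyte markers were above background in every liver, and their mean log2 level was 1.00 to 2.37 in ADSC inflammatory cells, -0.15 to 0.96 in PBS inflammatory cells, 5.65 to 6.43 in ADSC livers and 5.14 to 6.26 in PBS livers. Exocrine pancreas markers were uneven in the inflammatory cells, at -2.04 to 8.82 after ADSC and 1.94 to 8.98 after PBS, with the arrays ADSC 10, PBS 11 and PBS 13 above 6. None of these 7 markers was above background in any liver. The extraction protocol speaks of cells infiltrating a tumor and of blood, which leaves the isolation of these cells unclear. In whole tissue, fewer cells of a type and less RNA per cell cannot be told apart.

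No clock gene passed the test for ADSC against PBS in either sample type. Between inflammatory cells and liver, 8 of the 8 that could be tested differed, as did 84.4% of all genes. For Per2 and Nr1d1 the direction of that difference depended on the probe. Levels also differed among livers of one treatment: in the liver PBS 12, Arntl was the highest of 8 and Dbp, Tef, Per2 and Per3 were the lowest. Over the 8 livers, Per2 and Tef fell as Arntl was higher, also without that liver. Levels below are log2 signals relative to the array's own 75th percentile, so 0 is the signal of that percentile, and a level is compared between arrays for one probe and never between probes.

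**Figure D1:**
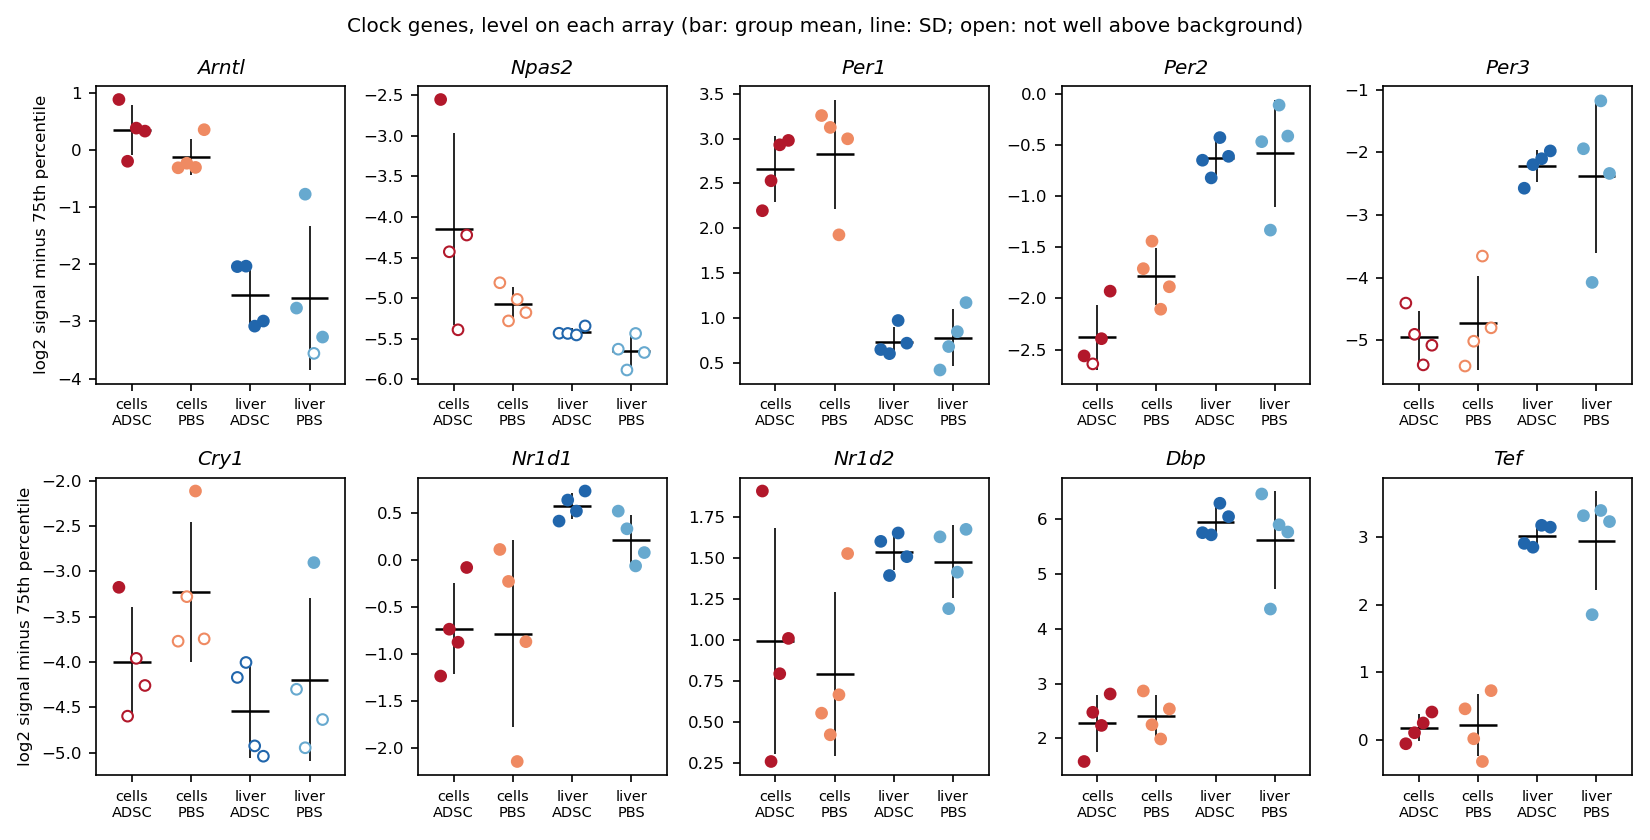
Log2 level (vertical axes, relative to the array's 75th percentile) of each clock gene on each of the 16 arrays, in inflammatory cells (red) and liver (blue), ADSC left of PBS within each. Points are arrays, filled where the probe was well above background and open where it was not, the bar is the group mean and the line its SD (n = 4). Arntl and Per1 lie higher and Dbp and Tef lower in inflammatory cells, and 1 PBS liver stands apart in Arntl, Per2, Per3, Dbp and Tef.

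Of the activators, Arntl encodes the obligate partner in the clock's activating complex. In inflammatory cells Arntl stood at 0.88, -0.20, 0.38 and 0.33 on the ADSC arrays 7 to 10, against -0.31, -0.24, -0.31 and 0.35 on the PBS arrays 11 to 14. In liver it stood at -2.04, -2.03, -3.08 and -2.99 on the ADSC arrays and at -2.77, -0.78, -3.56 and -3.27 on the PBS arrays. The ADSC and PBS arrays overlapped in both sample types, and PBS 12 was the highest liver by more than 1 log2 unit. Arntl is dim in liver: the lowest level counted as well above background ranged from -4.54 to -3.41 over the liver arrays, and on PBS 13 Arntl did not reach it. ADSC minus PBS was 0.47 ± 0.27 in inflammatory cells (SE, limma adjusted p = 0.370, 95% interval -0.13 to 1.07) and 0.06 ± 0.59 in liver (adjusted p = 0.998, interval -1.29 to 1.40). Npas2, which can take the place of CLOCK in that complex, was above background on 1 of the 16 arrays, inflammatory cells ADSC 7, where it stood at -2.55. Elsewhere it lay between -5.89 and -4.22 and was not tested.

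The period genes encode repressors that act with the cryptochromes, and Per1 is also known to respond quickly to hormones and stress. Per1 stood at 2.20, 2.53, 2.93 and 2.98 in ADSC inflammatory cells, at 3.26, 3.12, 1.93 and 3.00 in PBS inflammatory cells, at 0.65, 0.60, 0.97 and 0.72 in ADSC livers and at 0.42, 0.68, 0.85 and 1.17 in PBS livers. Every inflammatory cell array lay above every liver, and the treatments overlapped within each. ADSC minus PBS for Per1 was -0.17 ± 0.32 in inflammatory cells (SE, limma adjusted p = 0.819) and -0.04 ± 0.17 in liver (adjusted p = 0.998).

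Per2 stood at -2.56, -2.64, -2.39 and -1.93 in ADSC inflammatory cells, against -1.71, -1.44, -2.11 and -1.89 in PBS inflammatory cells. The ADSC arrays lay lower on the whole but ADSC 10 fell among the PBS arrays. The difference of -0.60 ± 0.24 (SE, 95% interval -1.13 to -0.06) had an unadjusted p of 0.0316 and a limma adjusted p of 0.236, so Per2 was not called. Within scan day 2, with 2 arrays a group, Per2 differed by -1.03, and within scan day 3, with 2 ADSC arrays and 1 PBS array, by -0.06. Without the 3 arrays rich in pancreas transcripts it differed by -0.87 (limma adjusted p = 0.139, with 0.0757 to 0.858 over all alternatives). The second Per2 probe, above background on 8 of 8 inflammatory cell arrays, differed by only -0.04 between ADSC and PBS inflammatory cells. In liver, Per2 stood at -0.65, -0.82, -0.43 and -0.61 after ADSC and at -0.47, -1.33, -0.11 and -0.41 after PBS, a difference of -0.05 ± 0.25 (limma adjusted p = 0.998).

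Per3, which is less needed for the clock itself but is strongly rhythmic in liver, was above background in all 8 livers and in none of the 8 inflammatory cell arrays. In liver it stood at -2.57, -2.20, -2.10 and -1.98 after ADSC and at -1.94, -4.08, -1.18 and -2.34 after PBS. The PBS livers held both the lowest and the highest value. ADSC minus PBS was 0.17 ± 0.54 (SE, limma adjusted p = 0.998, 95% interval -1.05 to 1.39). Cry1, a light-independent repressor of the ARNTL complex, was above background on 3 of 16 arrays and was not tested: inflammatory cells ADSC 7 at -3.18, inflammatory cells PBS 13 at -2.11 and liver PBS 13 at -2.90.

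Nr1d1 encodes a heme-binding repressor that closes the loop on Arntl. It stood at -1.23, -0.73, -0.87 and -0.08 in ADSC inflammatory cells and at 0.12, -0.22, -2.14 and -0.87 in PBS inflammatory cells, a difference of 0.05 ± 0.45 (SE, limma adjusted p = 0.969). In liver it stood at 0.42, 0.64, 0.53 and 0.74 after ADSC and at 0.52, 0.34, -0.06 and 0.08 after PBS. The liver difference was 0.36 ± 0.15 (95% interval 0.02 to 0.70), with an unadjusted p of 0.0413 and a limma adjusted p of 0.998. ADSC 7 lay below PBS 11, ADSC 9 was level with PBS 11 (0.5251 against 0.5249), and ADSC 8 and ADSC 10 lay above all PBS livers. The other Nr1d1 probes differed by 0.60 and 0.36 between ADSC and PBS livers. Nr1d2, its close relative, stood at 1.91, 0.26, 0.80 and 1.01 in ADSC inflammatory cells and at 0.56, 0.42, 0.67 and 1.53 in PBS inflammatory cells. In liver it stayed within 1.39 to 1.65 after ADSC and 1.19 to 1.67 after PBS. Nr1d2 differed by 0.20 ± 0.36 in inflammatory cells (limma adjusted p = 0.808) and by 0.06 ± 0.13 in liver (adjusted p = 0.998).

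Dbp encodes an activator of drug and lipid metabolism genes and is one of the most rhythmic messages of the liver. It stood at 1.58, 2.48, 2.24 and 2.81 in ADSC inflammatory cells and at 2.87, 2.25, 1.99 and 2.54 in PBS inflammatory cells. In liver it stood at 5.75, 5.72, 6.29 and 6.05 after ADSC and at 6.46, 4.36, 5.90 and 5.77 after PBS. The treatments overlapped in both, with liver PBS 12 more than 1 log2 unit below the next. ADSC minus PBS was -0.14 ± 0.30 in inflammatory cells (SE, limma adjusted p = 0.850) and 0.33 ± 0.40 in liver (adjusted p = 0.998, 95% interval -0.59 to 1.25). Tef, a relative of Dbp, stood at -0.05, 0.11, 0.26 and 0.42 in ADSC inflammatory cells, at 0.46, 0.02, -0.31 and 0.73 in PBS inflammatory cells, at 2.90, 2.84, 3.17 and 3.14 in ADSC livers and at 3.31, 1.85, 3.39 and 3.22 in PBS livers. Liver PBS 12 was again the lowest liver. Tef differed by -0.04 ± 0.26 in inflammatory cells (limma adjusted p = 0.953) and by 0.07 ± 0.33 in liver (adjusted p = 0.998).

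Over the members, 0 of the 8 tested in liver passed an adjusted p of 0.05, against 0% of all genes (0 of 17321), and 1 member, Nr1d1, had an unadjusted p under 0.05, against 4.65% of all genes (806). No tested member's liver groups separated without overlap, against 2.88% of all genes. In inflammatory cells 0 of the 7 tested passed, against 1.2% of all genes (243 of 20167), and 1 member, Per2, had an unadjusted p under 0.05, against 18.4% of all genes (3719). No tested member separated without overlap there, against 10.3% of all genes. The difference between the ADSC effects in inflammatory cells and in liver passed for 0 of 8 members by limma, against 0.0316% of all genes, with 0 members at an unadjusted p under 0.05, against 10.1% of all genes. The intervals allow sizeable changes. In liver they reach past 1 log2 unit on at least 1 side for Arntl, Per3 and Dbp. In inflammatory cells they do so for Arntl (to 1.07), Per2 (to -1.13), Nr1d1 (to 1.05) and Nr1d2 (to 1.01). Beside these values, 8 of 8 neutrophil markers were lower in ADSC than in PBS inflammatory cells by limma, with a mean level of 2.07 to 3.02 after ADSC and 5.47 to 7.31 after PBS. In liver the neutrophil markers lay at -1.59 to -0.08 after ADSC and 0.94 to 4.66 after PBS. Their part in the clock gene values was not tested.

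**Figure D2:**
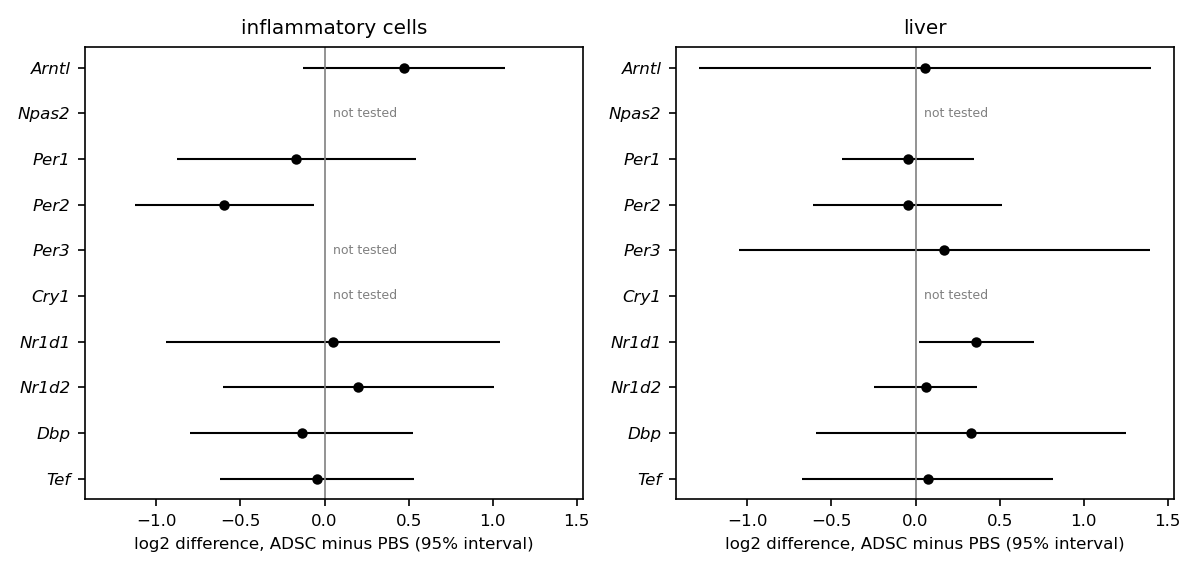
Log2 difference between ADSC and PBS arrays (horizontal axes) of each clock gene in inflammatory cells (left) and liver (right), as points with 95% intervals from limma (4 arrays a group). The interval includes 0 for all tested genes but Per2 in inflammatory cells and Nr1d1 in liver, neither of which passed after adjustment over all genes.

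Several of the liver estimates changed with single arrays, most often with PBS 12. Without it, Arntl differed between ADSC and PBS livers by 0.66 ± 0.33 in place of 0.06, and the signs of Per3, Nr1d2, Dbp and Tef turned, to -0.39, -0.03, -0.09 and -0.29. By limma 0 of 8 members were called then too. The sign of Arntl also turned without any one of PBS 11, PBS 13, PBS 14, ADSC 7 or ADSC 8 (lowest -0.27, without PBS 13), that of Per2 without PBS 13, PBS 14 or ADSC 8, and that of Per1 without PBS 14. Nr1d1 stayed positive under all its alternatives, between 0.24 and 0.53. Scan day 1 held ADSC livers alone (8 and 10) and scan day 3 PBS livers alone (11, 12 and 14). On those days scan day and treatment cannot be told apart in liver. Within scan day 2, which held 2 ADSC livers (7 and 9) and 1 PBS liver (13), Arntl differed by 1.00 and Per3 by -1.16.

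The spread among livers of the same treatment was wide for some clock genes, and much of it came with PBS 12. The within-group SD of Arntl in liver was 0.98 log2 units, above that of 97.6% of the 17321 genes tested, and that of Per3 was 0.89, above 96.9%. Dbp varied more than 93.3% of genes and Tef more than 88.1%. Per2 ranked at 75.3%, and Per1, Nr1d1 and Nr1d2 ranked at 49.9%, 38.9% and 29.7%, at or below the middle of all genes. Without PBS 12, the SD was 0.51 for Arntl (above 89.3% of genes), 0.42 for Per3 (83.4%), 0.31 for Dbp (69.6%), 0.17 for Per2 (34.5%) and 0.14 for Tef (21.6%). Among the ADSC livers alone it was 0.58 for Arntl, 0.26 for Per3, 0.27 for Dbp and 0.16 for Tef, against 1.25, 1.23, 0.89 and 0.73 among the PBS livers. In inflammatory cells the order was different: Nr1d1 varied more than 93.2% of genes and Nr1d2 more than 82.9%, while Arntl ranked at 48.1% and Tef at 40.7%.

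Against the median of the 8 livers, PBS 12 had 2.10 more Arntl on the log2 scale, a deviation larger than that of 99.0% of genes on that array. Per3 deviated by -1.93 (larger in size than 98.9% of genes), Dbp by -1.47 (98.0%), Tef by -1.30 (97.2%) and Per2 by -0.79 (90.3%). Nr1d2 deviated by -0.36 and Nr1d1 by -0.14, and Per1 was within 0.02 of the median, so the E-box targets did not all deviate alike. ADSC 7 and ADSC 8 had the next highest Arntl, 0.84 and 0.85 above the median, with Tef at -0.25 and -0.31. PBS 13 lay on the other side, with Arntl at -0.68, Per2 at 0.43 and Per3 at 0.97. The log2 level of Dbp minus that of Arntl, set against its median over livers, was -3.90 in PBS 12, -1.24 in ADSC 7 and -1.29 in ADSC 8, and lay within 0.42 of that median in the other 5 livers.

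Other genes of the clock and of its output deviated with them in PBS 12. These were picked for their values from lists of 20 other clock genes and 28 rhythmic liver outputs. Ciart, a clock repressor, stood at -5.53 in PBS 12, not well above background, against -2.80 to -1.20 in the other livers. Hlf, the third PAR bZIP factor, stood at -0.12, against 0.81 to 1.34. Nfil3, a repressor that binds the D-box, stood at 0.90, against -0.35 to 0.32. Of the outputs, Usp2, a deubiquitinase, stood at -1.19 against -0.20 to 1.15, and Upp2, a uridine phosphorylase, at -2.76 against 0.82 to 2.23. Alas1 of heme synthesis, Gys2, the liver glycogen synthase, and Cyp7a1, the first enzyme of bile acid synthesis, were 1.67, 1.84 and 3.30 below the median. Clock itself was 0.37 above it, and the casein kinases Csnk1d and Csnk1e, which mark PER proteins for decay, were at -0.09 and 0.10.

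PBS 12 also differed from the other livers in measures that are not the clock. It had the highest 75th percentile of any array (552), the largest median deviation over all genes of any liver (0.22 log2 units, against 0.10 to 0.18) and the lowest mean correlation with the other livers (0.965, against 0.973 to 0.980). Its hepatocyte markers were the lowest of the livers (5.14, against 5.65 to 6.43), its neutrophil markers the highest (4.66, against -1.59 to 3.15) and its immediate early genes the highest (0.86, against 0.37 to 0.60). It shared its slide and scan day with liver PBS 14, whose Arntl was at -3.27 and Dbp at 5.77. The slide also held inflammatory cells PBS 13, which had the largest median deviation of its type (0.42, against 0.16 to 0.33). The inflammatory cell array numbered PBS 12 did not stand apart in these 2 genes, with Arntl at -0.24 and Dbp at 2.25. Its neutrophil markers were the highest of the inflammatory cell arrays (7.31, against 2.07 to 6.70). Over all genes tested, its deviations correlated with those of liver PBS 12 at 0.17. Hepatocyte loss, neutrophil content and signal level were not tested as parts of the clock gene pattern.

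**Figure D3:**
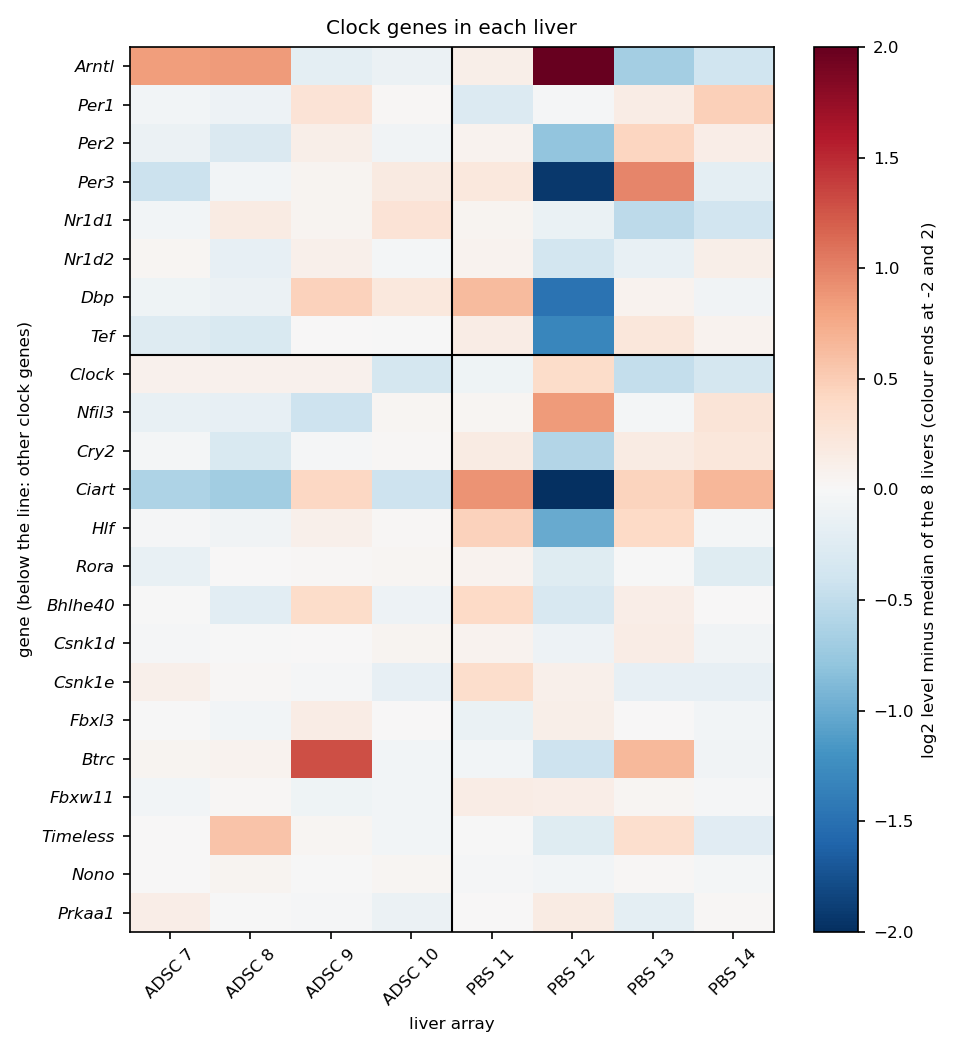
Colour map of the log2 level of each tested clock gene on each liver array minus its median over the 8 livers (red higher, blue lower, ends at -2 and 2), ADSC arrays left of PBS arrays, with the 10-gene set above the line and other clock genes below it. The column PBS 12 is red for Arntl and Nfil3 and blue for Per2, Per3, Dbp, Tef, Ciart and Hlf.

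Arntl was set against each of the other 9 members over the 8 arrays of each sample type, 18 correlations in all, with two-sided exact permutation tests and adjustment over the 18. As the gene set was proposed with these data known, these p-values describe the arrays and are no independent evidence. In liver, Per2 fell as Arntl was higher, with Pearson's r = -0.96 (exact permutation p = 0.000446, adjusted 0.00804) and Spearman's rho = -0.98 (exact p = 0.000397, adjusted 0.00714). Without PBS 12 and ADSC 8, the 2 livers farthest from the median of Arntl, r was -0.80. Tef also fell, with r = -0.94 (exact permutation p = 0.00131, adjusted 0.0118) and r = -0.84 without those 2 livers. Its rho of -0.86 (exact p = 0.0107, adjusted 0.0964) did not pass after adjustment. Per3 had r = -0.89 (exact permutation p = 0.00389, adjusted 0.0175) but rho = -0.62 (exact p = 0.115), and r = -0.72 without them. Dbp had r = -0.80 (exact permutation p = 0.0347, adjusted 0.125) and rho = -0.57 (exact p = 0.151), and r fell to -0.06 without them, so that relation rested on those livers. Leaving out PBS 12 alone, r was -0.87 for Per2, -0.90 for Tef, -0.66 for Per3 and -0.29 for Dbp. Nr1d2 had r = -0.66 (exact permutation p = 0.0714, adjusted 0.214), -0.13 without PBS 12. Nr1d1 had r = 0.27 (exact permutation p = 0.518) and Per1 r = -0.46 (exact permutation p = 0.248).

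With values centred within each scan day, r with Arntl in liver was -0.97 for Per2, -0.94 for Tef and -0.91 for Per3, and centred within treatment it was -0.96 for Per2, -0.95 for Tef and -0.90 for Per3. Of the dimmer probes of the same genes, one of Tef was above background in 8 of 8 livers and gave r = -0.93. A further Tef probe (r = -0.89) was above background in 6 of 8, PBS 12 not among them, and the second Per2 probe (r = -0.72) in 4 of 8, so these values rest partly on signals near background. The 2 further probes of Nr1d1 gave -0.01 and -0.14. Among the 10471 named genes above background in all 8 livers, Per2 had the 7th lowest correlation with Arntl, Tef the 12th, Cry2 the 56th, Per3 the 95th and Usp2 the 108th, and Clock had the 80th highest, at r = 0.86. The genes most like Arntl over the 8 livers were Sox9, Rb1, Pkd2, Kifc3 and Ddx18 (r = 0.94 to 0.99), and the most opposite were Hsd17b11, Mrps35, Olfr744, Rhbdd2 and Gys2 (r = -0.98 to -0.96). Among the genes most like Dbp were Itpka, Bri3, Exosc5 and Mfsd3 (r = 0.98 to 0.99), and the most opposite were Mid2, Moap1, Ajuba, Tspan32 and Adnp (r = -0.98 to -0.94). With 8 arrays, and with PBS 12 apart from the rest in many genes, such lists change readily: when values were centred within treatment, 0 of the 5 genes most like Dbp stayed among the first 5, and 3 of the 5 most like Arntl did.

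**Figure D4:**
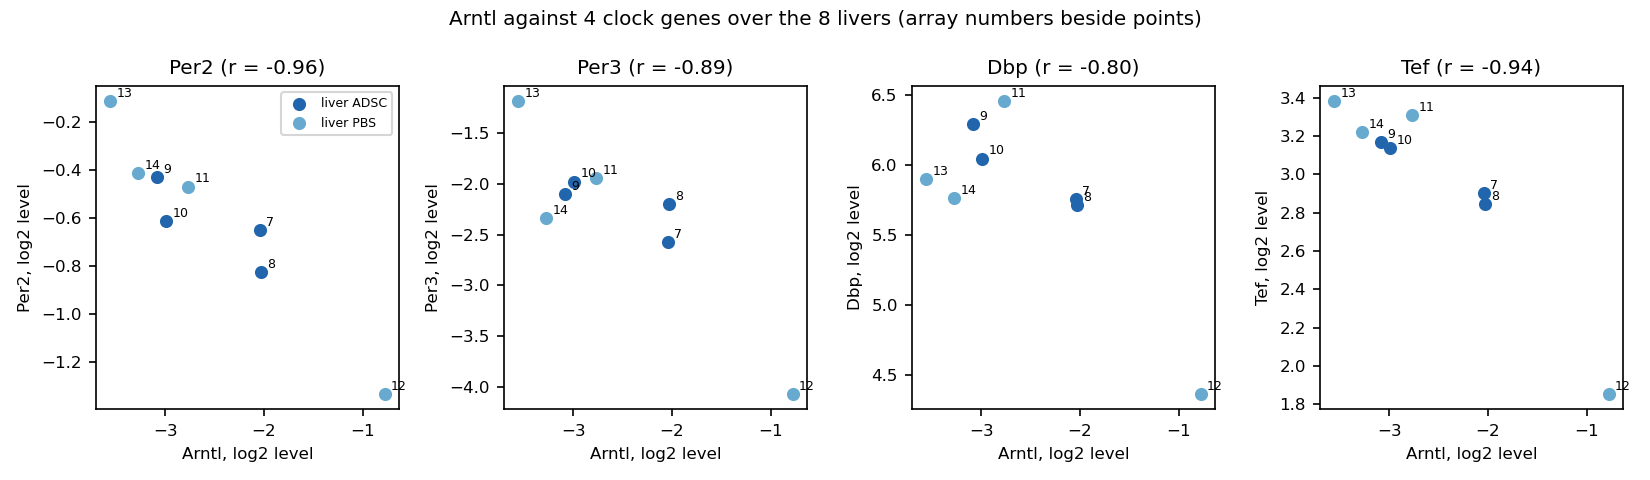
Log2 level of Arntl (horizontal axes) against that of Per2, Per3, Dbp and Tef (vertical axes) on each of the 8 livers, with ADSC arrays in dark blue, PBS arrays in light blue and the array number beside each point. Per2 and Tef fall along the whole range of Arntl, whereas in Dbp the relation rests on PBS 12, at the lower right.

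Promoter sequences show which of these genes carry the letters that the clock's activators read. The 250 bases before the transcript start, from RefSeq on GRCm38.p6, were found for 9 of the 10 members, in 12 windows. No window was found for Per2, so its promoter was not searched. Both strands were searched for the E-box CACGTG, found in 6.02% of all 32851 windows, and for the D-box as TTATGTAA, TTATGCAA or TTACGTAA, found in 1.61%. Tef, which moved against Arntl in liver, has an E-box in the windows of both its starts, 127 bases before the first (chr15:81802423-81802672, plus strand) and 138 before the second (chr15:81811164-81811413, plus strand). Per3, which had 2 D-boxes, 205 and 158 bases before its start (chr4:151044666-151044915, minus strand), was low in PBS 12. Per1, which did not deviate in PBS 12, has an E-box 166 bases before its first start and a D-box 24 bases before it (chr11:69098699-69098948, plus strand). The window of its second start holds neither. Capitals mark the E-box in Tef, the D-boxes in Per3 and, in Per1, the E-box, a REV-ERB core motif (AGGTCA, here on the other strand) and the D-box in that order. The REV-ERB core lies in 14% of all windows.
Tef first start: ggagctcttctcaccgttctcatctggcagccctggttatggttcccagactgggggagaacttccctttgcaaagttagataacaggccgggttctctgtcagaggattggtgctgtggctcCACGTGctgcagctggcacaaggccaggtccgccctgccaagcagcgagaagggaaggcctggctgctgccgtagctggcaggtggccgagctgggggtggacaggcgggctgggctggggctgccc
Tef second start: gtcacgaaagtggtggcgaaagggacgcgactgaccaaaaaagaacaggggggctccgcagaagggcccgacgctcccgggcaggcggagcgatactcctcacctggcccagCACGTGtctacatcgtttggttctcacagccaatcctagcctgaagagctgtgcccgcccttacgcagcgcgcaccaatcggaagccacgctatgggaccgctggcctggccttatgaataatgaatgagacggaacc
Per3: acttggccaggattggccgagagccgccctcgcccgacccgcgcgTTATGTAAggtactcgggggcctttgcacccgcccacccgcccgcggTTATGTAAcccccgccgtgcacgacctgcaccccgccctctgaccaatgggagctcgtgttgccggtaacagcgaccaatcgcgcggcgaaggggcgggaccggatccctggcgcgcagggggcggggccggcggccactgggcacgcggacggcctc
Per1: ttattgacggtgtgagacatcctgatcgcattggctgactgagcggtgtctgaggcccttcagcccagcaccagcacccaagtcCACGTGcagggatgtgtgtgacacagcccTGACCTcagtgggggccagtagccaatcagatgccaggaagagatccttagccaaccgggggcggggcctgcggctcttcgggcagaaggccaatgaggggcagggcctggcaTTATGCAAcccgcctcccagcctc
Cry1 also holds an E-box, 60 bases before its start, and the E-box relative CACGTT (3.85% of all windows) lies in the windows of Cry1 and Nr1d1. The windows of Arntl, Npas2 and Dbp hold none of these letters, which says nothing about sites elsewhere: the known E-boxes of Dbp lie partly within the gene.

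In inflammatory cells, Arntl and Nr1d2 were high together, with r = 0.88 (exact permutation p = 0.0035, adjusted 0.0175). By rank the relation did not pass, with rho = 0.71 (exact p = 0.0576, adjusted 0.259). Without PBS 11 and ADSC 7, the 2 arrays farthest from the median of Arntl, r was 0.76. None of the other 8 relations with Arntl passed after adjustment, and r with Per2, Tef and Dbp was -0.44, 0.19 and -0.42 (exact permutation p = 0.276, 0.663 and 0.298). A set of tests added after the values were seen covered all 21 pairs of the 7 members tested there, each by its brightest probe. Per1 and Nr1d1 were also high together, with r = 0.89 (exact permutation p = 0.00164, adjusted over the pairs 0.0344) and rho = 0.83 (exact p = 0.0154, adjusted 0.108). Without PBS 13 and ADSC 7, the 2 arrays farthest from the median of Per1, r was 0.62. That relation depends on the Nr1d1 probe. Its 2 other probes were above background on 8 of 8 of these arrays. On them PBS 13, the lowest in Per1, stood at -0.83 and -1.26, and PBS 11, the highest in Per1, at -1.47 and -1.82. The brightest Nr1d1 probe had the opposite order, -2.14 in PBS 13 and 0.12 in PBS 11. The other pairs among Per1, Nr1d1, Dbp and Tef had r between 0.62 and 0.76 and did not pass after adjustment (exact permutation, adjusted p = 0.148 to 0.279). PBS 13, the array richest in pancreas transcripts (8.98), was the lowest of the 8 in Per1 and, by their brightest probes, in Nr1d1 and Tef. On 1 further probe of Nr1d1 and 1 of Tef it was the highest of the 8, at -0.83 and -1.58. That Tef probe was above background on 7 of 8 arrays, and the remaining Tef probe was not above background on PBS 13. The part of PBS 13 was not tested. The array ADSC 7 had the highest Arntl, Npas2 and Nr1d2 of the 8 and the lowest Dbp, and its Dbp minus Arntl was 1.69 below the median of the inflammatory cell arrays, the others lying between -0.53 and 0.79. That array had the lowest level of exocrine pancreas markers (-2.04) and the lowest of macrophage markers (1.23, against 1.57 to 4.25). Their part was not tested. Over these 8 arrays the genes most like Arntl were Las1l, Zfp275, Shisa5, Smg1 and Pcgf6 (r = 0.97 to 0.99), and the most opposite were H2ac4, Apoe, Npr2, H1f5 and Pex11g (r = -0.98 to -0.94). Those most like Dbp were Trip6, Cys1, Tle2, Inppl1 and Ddah2 (r = 0.96 to 0.98), and the most opposite were Olfr1419, Hus1, Sost, Doc2a and Ankef1 (r = -0.97 to -0.94).

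Inflammatory cells differed from liver in all 8 members tested. Over all genes limma called 84.4% in this contrast (48.9% higher, 35.5% lower), with a median difference of 0.35 log2 units, so that a call by itself sets no gene apart here. That median lay at 0.32, 0.13 and 0.68 under the 3 other scalings, and each member's difference is to be read against it. The groups did not overlap for 5 of the 8 members, against 57.7% of all genes.

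Among the activators, Arntl was 2.67 ± 0.34 higher in inflammatory cells (SE, 6.38-fold, limma adjusted p = 1.75e-06), with 8 of 8 arrays above every liver. Among ADSC arrays alone 7 of 8 members were called, against 78.6% of all genes, and among PBS arrays alone 8 of 8, against 75.9%. Arntl was 2.88 higher among ADSC arrays, 2.47 higher among PBS arrays and 1.54 higher with another background correction and quantile normalization. Per1 was 1.98 ± 0.19 higher (3.95-fold, limma adjusted p = 8.58e-08), without overlap. The probe used for Per2 was 1.48 ± 0.17 lower in inflammatory cells (limma adjusted p = 7.93e-07), without overlap. The second Per2 probe was 2.65 higher, and with the mean of both probes Per2 was 0.59 higher (limma adjusted p = 0.00217, the highest of its alternatives), so the direction of Per2 depends on the probe. Per3 was not well above background in any inflammatory cell array, which gives at least 1.95-fold lower in inflammatory cells, from measured means of -4.83 in inflammatory cells and -2.30 in liver (limma adjusted p = 4.09e-06). With normexp background correction it differed by -0.32 and was not called (limma adjusted p = 0.123, the highest of its alternatives, with 6.69e-08 the lowest).

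Nr1d1 also depended on the probe. Its brightest probe was 1.16 ± 0.27 lower in inflammatory cells (SE, limma adjusted p = 0.000781), its other probes were 1.88 and 1.43 higher, and the mean of the 3 was 0.72 higher (limma adjusted p = 9.78e-06). Nr1d2 was 0.61 ± 0.21 lower (limma adjusted p = 0.0136), and was not called among the ADSC arrays alone (adjusted p = 0.107) or under 3 alternatives (adjusted p = 0.0818 to 0.190, the lowest of any alternative being 0.000814). Dbp was 3.44 ± 0.26 lower in inflammatory cells (10.9-fold, limma adjusted p = 4.26e-09) and Tef 2.77 ± 0.22 lower (6.83-fold, limma adjusted p = 5.29e-09), both without overlap, liver PBS 12 included. The other probes of Tef differed by 0.00 and -1.54, and the mean of its probes by -1.44 (limma adjusted p = 0.000131, the highest of its alternatives). Hence Arntl, Per1 and Dbp, each read by a single probe, kept their direction under every scaling tried, and so did Tef.

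**Figure D5:**
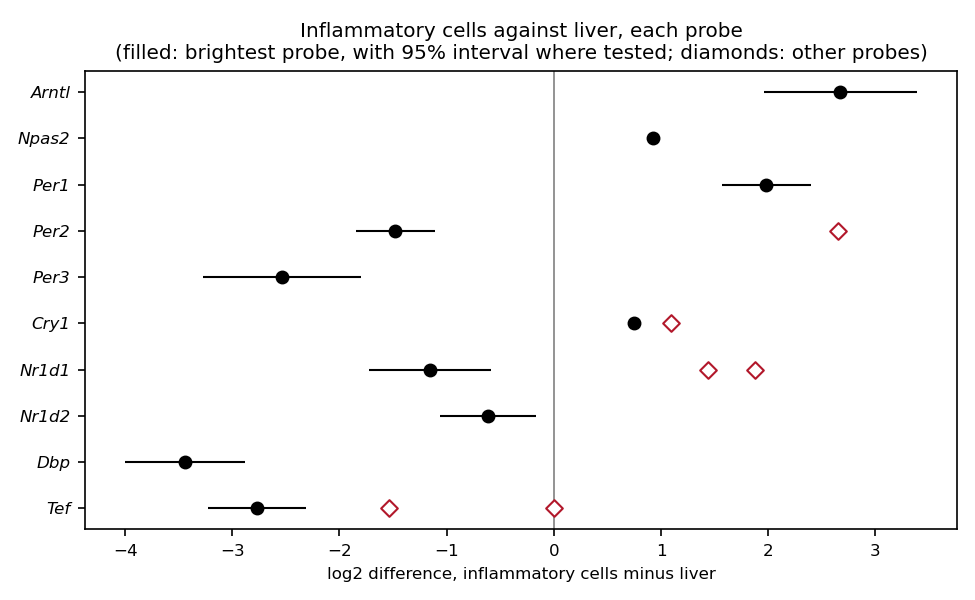
Log2 difference between inflammatory cells and liver (horizontal axis) for every probe of each clock gene. Filled points are the brightest probe, with its 95% interval from limma where tested (8 arrays a sample type), and open diamonds the other probes. The diamonds of Per2 and Nr1d1 lie on the other side of 0 from the filled point.

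Of the 20 other clock genes, 0 of the 16 tested were called for ADSC against PBS in liver and 0 of 16 in inflammatory cells. The smallest unadjusted p-values were those of Nfil3 in liver (-0.45, limma adjusted p = 0.998) and of Ciart (0.99, limma adjusted p = 0.191) and Nfil3 (-0.92, limma adjusted p = 0.199) in inflammatory cells. Between inflammatory cells and liver, 4 were higher and 7 lower of 17 tested by limma, against 48.9% higher and 35.5% lower of all genes. Nfil3 was 3.56 higher and Bhlhe40, another repressor of E-box transcription, 1.72 higher. Hlf was 2.72 and Prkaa1, an AMPK subunit, 0.86 lower in inflammatory cells. Clock itself differed by -0.29 and was not called (limma adjusted p = 0.130).

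The rhythmic liver outputs gave 0 of 23 called in liver and 0 of 20 in inflammatory cells for ADSC against PBS. The smallest unadjusted p-values were those of Rgs16 in liver (1.16, limma adjusted p = 0.998), a signalling regulator that is rhythmic there, and of Cyp2a5 in inflammatory cells (1.59, limma adjusted p = 0.0644), a cytochrome that is a DBP target. Between inflammatory cells and liver 16 of 26 were lower and 3 higher by limma, against 35.5% lower and 48.9% higher of all genes. Their median was -1.20, against 0.35 over all genes. Among the lower were Insig2 of sterol sensing (-3.61), Cyp2a5 (-5.29) and Gys2 (-7.82). Hepatocyte markers fell with them, 7 of 7, with a median of -5.35. The immediate early genes, which include known fast inducers of Per1, were higher in inflammatory cells in 9 of 9 (median 4.87, Fos 6.76 and Nr4a1 7.00), as were the heat shock genes Hspa1a (9.56) and Hspa1b (9.85). Of 7 glucocorticoid targets, 5 were lower and 2 higher, Sgk1 (1.64) and Tsc22d3 (1.28), with a median of -1.86 over the 7. Their part in the level of Per1 was not tested.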

How the data were processed

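Total RNA from 16 samples was hybridised to one-colour Agilent mouse arrays. Per the file headers, the authors deposited scanner output of Agilent Feature Extraction 10.5.1.1, and the value used is the processed signal, a background-corrected intensity in the Cy3 channel. The deposited value table held the same intensities (largest relative difference 0). From there, control spots and outlier flags were left out, spots of a probe were averaged, log2 was taken and each array's 75th percentile subtracted. A gene was named through its accession in RefSeq and read by its brightest probe. Genes whose probe exceeded background clearly (the software's own flag) on 4 or more of the arrays compared were tested. Tests used limma 3.58.1 in R 4.3.3 (lmFit and eBayes) with Benjamini-Hochberg adjustment over all genes tested, and were tested first on simulated data with known changes. For a probe above background in one group alone, the bound "at least" sets the mean of the bright group against the lowest signal counted as well above background, or the probe's own where higher. Alternatives were normexp background correction of the median signal, quantile normalization, other filters, the mean of a gene's probes, slide and scan day terms and leaving out arrays. The number of arrays, 4 a group, limits the precision.

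The members and gene lists were chosen with earlier results of these data known. Beyond the 10 members, the genes named are the 5 most like and the 5 most opposite to Arntl and to Dbp and, of each list, up to 6 that passed with the smallest p-values, or the 3 smallest where fewer than 3 passed, of which some are given and some are not reported here. Clock, Cry2, Usp2 and the genes described for liver PBS 12 were chosen after their values were seen. Centring within scan day, leaving out each array from the correlations and the liver SDs, the pairs among members in inflammatory cells and the correlations of further probes were also chosen after seeing the data. Samples with the same number mostly did not deviate together (correlations of -0.06 to 0.17, over 0.1 for 1 of 8 pairs). That pair was PBS 12, at 0.17. The numbers were not used to pair samples.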

Additional observations from a re-analysis of the deposited data

Results flagged for a closer look

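Of 40 groups of 4 arrays, 2 held an array whose gap to its nearest neighbour was too large a part of the group's range by Dixon's 95% critical value for 4 samples. Chance alone gives about 1 in 20 such groups. Tef stood at 1.85 in liver PBS 12, against 3.22 to 3.39 in the other PBS livers. Arntl stood at 0.35 in inflammatory cells PBS 14, against -0.31 to -0.24 in the other PBS inflammatory cell arrays.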

How the results depend on the processing

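No clock gene was called for ADSC against PBS under any alternative. With other settings, genes called in liver numbered 1 (mean of probes) in place of 0. In inflammatory cells they numbered 109 (no filter), 820 (slide as a random block), 161 (scan day), 0 (without the 3 arrays rich in pancreas transcripts, an alternative with fewer samples) and 68 to 507 with 1 array left out, in place of 243. For the difference of the ADSC effects they numbered 32 and 65 (normexp, and with quantile normalization), 1 (percentile over detected probes), 0 (no filter), 64 (probe above background on every array), 0 (scan day) and 0 to 47 with 1 array left out, in place of 7. With the number on the label as a replicate block this count was 0. No call of a clock gene changed with that block, and the pairing it assumes was not borne out by the data. Between sample types the filter on every array left 10452 genes called and 5 clock genes, since fewer genes were tested. Signs that turned for ADSC minus PBS in liver were Arntl -0.023 and -0.075 (normexp, quantile), Per2 0.017 and 0.0078 (normexp, mean of probes), Per3 -0.0021, -0.075 and -1.16 (quantile, slide, scan day) and Tef -0.021 and -0.35 (slide, scan day). The scan day values for liver come from scan day 2 alone, ADSC 7 and ADSC 9 against PBS 13, as the other days held 1 treatment. In inflammatory cells they were Tef 0.0024, 0.0564, 0.0562, 0.59 and 0.13 (normexp, quantile, detected probes, mean of probes, scan day), Nr1d1 -0.055, -0.31 and -0.40 (quantile, slide, without the pancreas-rich arrays) and Dbp 0.038 (quantile). For the difference of effects they were Per3 0.22 (normexp), Per1 0.043, 0.013 and 0.021 (quantile, detected probes, scan day) and Tef 0.021, 0.53 and 0.31 (detected probes, mean of probes, scan day). Between sample types they were Per2 0.59 and Nr1d1 0.72 (mean of probes). With 1 array left out, liver ranged over -0.27 to 0.66 for Arntl, -0.16 to 0.086 for Per1, -0.30 to 0.11 for Per2, -0.39 to 0.57 for Per3, -0.034 to 0.13 for Nr1d2, -0.090 to 0.61 for Dbp and -0.29 to 0.22 for Tef. Inflammatory cells ranged over -0.40 to 0.35 for Nr1d1, -0.10 to 0.45 for Nr1d2, -0.31 to 0.10 for Dbp and -0.22 to 0.13 for Tef. The difference of effects ranged over -0.19 to 0.74 for Arntl, -0.42 to 0.032 for Per1, -0.80 to 0.17 for Per3, -0.17 to 0.38 for Nr1d2 and -0.29 to 0.25 for Tef. Correlations with Arntl that turned in liver were Npas2 0.12 and Nr1d2 0.36 without the 2 farthest livers. In inflammatory cells they were Npas2 -0.032, Per1 0.59, Nr1d1 0.38 and Dbp 0.58 without the 2 farthest arrays, and Per3 0.13 and Cry1 0.27 when centred within treatment. With 1 array left out, r in liver ranged over -0.72 to 0.21 for Npas2, -0.44 to 0.10 for Cry1 and -0.046 to 0.58 for Nr1d1, and in inflammatory cells over -0.068 to 0.77 for Npas2, -0.61 to 0.31 for Per1, -0.34 to 0.58 for Per3, -0.43 to 0.32 for Cry1, -0.71 to 0.11 for Nr1d1, -0.63 to 0.19 for Dbp and -0.081 to 0.61 for Tef. Causes of these turns were not tested. Npas2 and Cry1, and Per3 in inflammatory cells, lie near background, where differences are not measurable.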
